A study of Mus musculus with 6 samples.

Results

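The WNT ligands, their Frizzled receptors, the secreted WNT inhibitors, the R-spondins with their Lgr receptors, and the WNT-responsive genes Axin2, Lef1 and Tcf7 were examined in mouse melanoma grown at 2 body sites. Members were taken by gene symbol (Wnt, Fzd, Sfrp, Dkk, Rspo, Wif1, Axin2, Lgr4 to Lgr6, Lef1, Tcf7), which gave 48 of the 45777 genes listed: 19 ligands, 10 Frizzleds, 9 secreted inhibitors, 7 R-spondins and Lgr receptors, and Axin2, Lef1 and Tcf7. B16F10 cells, a pigmented mouse melanoma line, had been grafted into the hind footpad, which bears weight, and into the flank skin, and total RNA was sequenced from 3 footpad and 3 flank skin tumors with 1 library each. The labels give all 6 hosts as Foxn1-/- mice, which lack a thymus, at an age of 8 weeks, whereas the series title speaks of a syngeneic graft and the methods describe B16F10 grafts in C57BL/6J mice, so the host strain is uncertain. No treatment separates the groups. The labels do not say whether the tumors came from separate animals. The methods describe grafting several sites of a mouse together, and a figure legend gives 3 mice for expression in footpad relative to flank tumors. Which tumors shared a mouse is not stated, and the main fit did not pair them. The p-values here therefore measure the spread between these 6 tumors. Read totals ran from 46529649 to 66364366 per tumor. Melanocyte marker genes summed to between 10221 and 25767 CPM, the count relative to a library size scaled by edgeR's TMM method, in the 6 tumors, and the T cell list to between 0.799 and 4.13 CPM, with Cd3d, Cd3e, Cd3g and Cd5 at 3 reads or fewer in every tumor.

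WNT proteins are secreted lipid-modified ligands that bind Frizzled receptors. With the coreceptors Lrp5 and Lrp6 they stabilize β-catenin, which acts with the nuclear factors Tcf7 and Lef1, and with other coreceptors such as Ror2 and Ptk7 they act on cell polarity and movement. Sfrp proteins and Wif1 bind the ligands, Dkk1 and Dkk2 act on Lrp5 and Lrp6, and R-spondins acting through Lgr receptors keep Frizzleds at the cell surface. In skin the pathway is known for hair follicle growth and for the melanocyte lineage.

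Promoter sequences of the 3 ligands that passed the test described next, and of Lgr4, are shown because they were searched for the DNA letters that 2 kinds of factor read: CTTTGA, read by the TCF/LEF factors of the WNT pathway, and GGAATG, read by TEAD factors, the DNA-binding partners of YAP. Each is the 250 bases before a RefSeq transcript start on build GRCm38.p6, read 5′ to 3′ on the strand of the gene, and capitals mark a match on either strand. Wnt2 lies on the minus strand (chr6:18030446-18030695, a start inside the annotated gene). Wnt9a (chr11:59306680-59306929), Wnt11 (chr7:98834862-98835111) and Lgr4 (chr2:109917397-109917646) lie on the plus strand, and the starts used for Wnt9a and Wnt11 also lie inside the annotated genes.
Wnt2: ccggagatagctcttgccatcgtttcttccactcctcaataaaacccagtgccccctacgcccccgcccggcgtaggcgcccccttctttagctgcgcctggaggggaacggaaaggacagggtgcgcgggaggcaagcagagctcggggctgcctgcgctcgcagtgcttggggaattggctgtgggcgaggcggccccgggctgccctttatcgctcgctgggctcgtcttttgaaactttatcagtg
Wnt9a: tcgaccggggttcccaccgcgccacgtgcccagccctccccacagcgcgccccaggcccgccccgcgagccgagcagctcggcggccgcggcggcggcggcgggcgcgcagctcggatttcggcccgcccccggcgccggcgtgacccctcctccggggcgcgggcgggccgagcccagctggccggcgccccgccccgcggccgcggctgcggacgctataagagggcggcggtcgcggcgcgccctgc
Wnt11: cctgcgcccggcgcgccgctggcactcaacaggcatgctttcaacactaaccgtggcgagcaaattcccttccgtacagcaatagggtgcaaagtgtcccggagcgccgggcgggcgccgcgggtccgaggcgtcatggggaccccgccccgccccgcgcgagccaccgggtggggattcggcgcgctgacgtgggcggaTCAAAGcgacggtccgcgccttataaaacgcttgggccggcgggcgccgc
Lgr4: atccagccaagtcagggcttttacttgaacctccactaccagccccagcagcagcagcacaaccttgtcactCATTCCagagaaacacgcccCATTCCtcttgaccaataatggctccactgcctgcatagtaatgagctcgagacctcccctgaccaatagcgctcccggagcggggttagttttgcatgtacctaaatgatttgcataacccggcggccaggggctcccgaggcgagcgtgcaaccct
Of the 48 members, 33 had a promoter entry. The letters CTTTGA or their reverse complement stood in at least 1 window of 5 of these 33 (15.2%: Dkk1, Fzd1, Lef1, Wnt11 and Wnt5b), beside 15.8% of 27025 genes with an entry. In Wnt11 the match lay 50 bases before the start shown, and the window of its other start (chr7:98838595-98838844) held none. GGAATG or its reverse complement stood in 1 of 33 members (3.03%), beside 14.4% of genes. That member was Lgr4, with copies 178 and 158 bases before the start. The promoters of Wnt9a and Wnt2 held neither. The bases G and C made up 84.4% of the Wnt9a window, 70.8% of the Wnt11 window shown and 63.6% of that of Wnt2, where the median over all windows was 52.4%. A match of 6 letters describes the sequence and not a bound site.

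The ligands Wnt2, Wnt9a and Wnt11 were called higher in footpad tumors by edgeR. None of the 9 Frizzled receptors tested was called by edgeR, beside 2.89% of all genes called higher and 0.872% called lower. Of the 48 members, 26 had enough reads to be tested, and 22 did not. A call needed at least a 2-fold difference and an adjusted p below 0.05 in edgeR's quasi-likelihood test, fitted and adjusted over all 17210 genes tested. By this rule 3 of the 26 members (11.5%) were called higher in footpad tumors, namely Wnt2, Wnt9a and Wnt11, where 2.89% of all genes tested were called higher. No member, 0 of 26, was called lower, where 0.872% of all genes were, and at an unadjusted p under 0.05 there were 9 members higher (34.6%) and 1 lower, Lgr5, beside 14.8% and 10.5% of all genes. Without footpad tumor 1, footpad tumor 3 or flank skin tumor 3 edgeR called 0 members, and the adjusted p of Wnt9a rose to as much as 0.107. Calls among the other pathway genes described below also fell to 0 in these fits. The share of all genes called in them is not given here, so the loss cannot be read as particular to the members. The log2 fold changes in these fits were 2.82, 2.68 and 2.40 for Wnt9a, 5.40, 4.95 and 4.80 for Wnt2, and 3.98, 3.85 and 3.41 for Wnt11, where all 6 tumors gave 2.75, 5.33 and 3.99. DESeq2 called 8 members higher (30.8%) and 0 lower, beside 6.71% and 2.05% of all genes. The 8 were Wnt2, Wnt2b, Wnt5a, Wnt9a, Wnt11, Dkk2, Fzd8 and Lgr6.

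In 10 of the 26 members (38.5%) every footpad tumor lay above every flank skin tumor, as it did in 17.5% of all genes tested, and in 2 members (7.69%), Fzd9 and Lgr5, every footpad tumor lay below, beside 14.9% of all genes. The sites overlapped in the other 14. The median fitted log2 fold change of footpad over flank was 0.22 over the 26 members and 0.00 (-0.0042) over all genes. The filter on low counts bears on these numbers. Wnt2, Wnt2b, Wnt11 and Dkk2 were under the filter level of 0.171 CPM in every flank skin tumor and passed through the footpad tumors, and 0 members passed only through the flank.

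**Figure D1:**
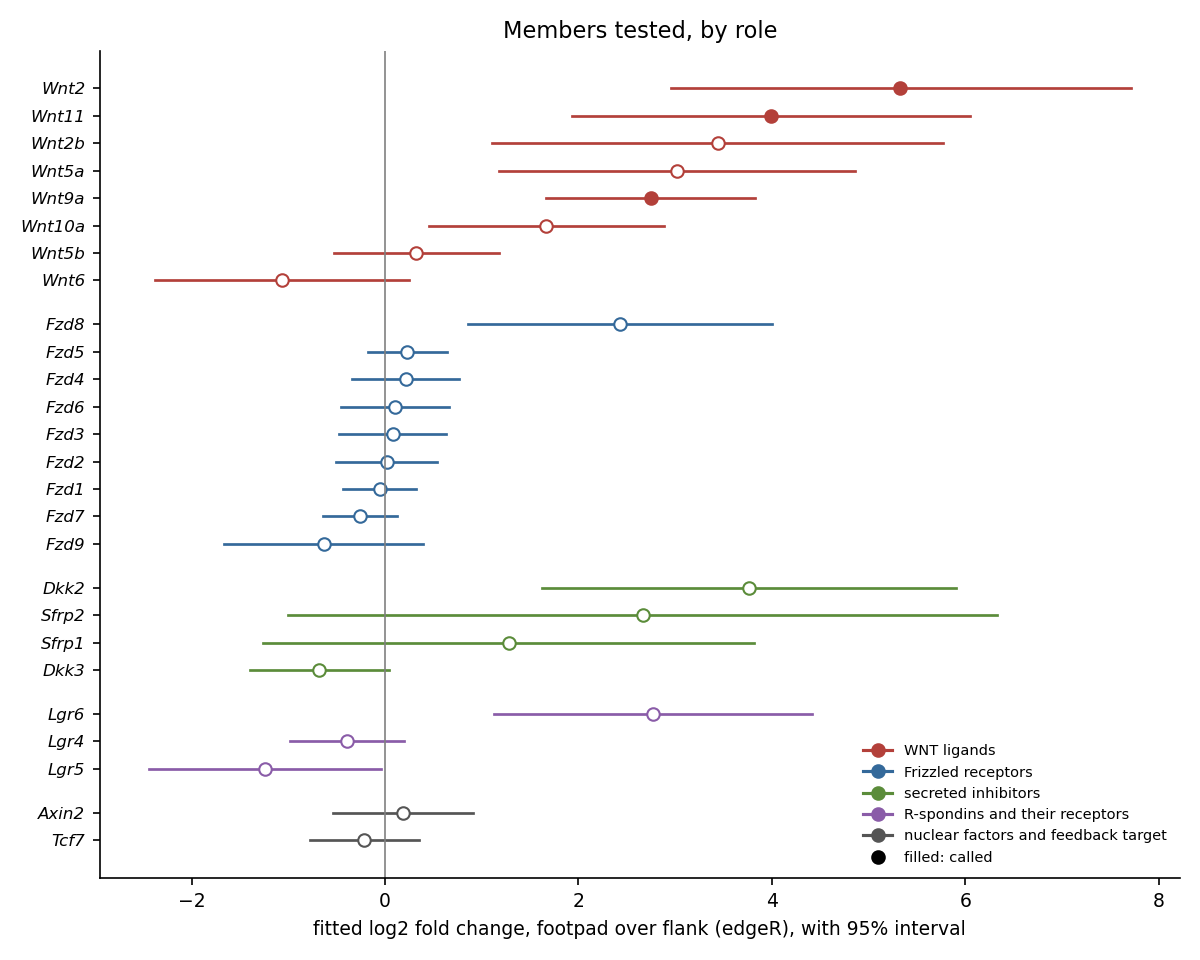
Fitted log2 fold change of footpad over flank skin tumors (x axis) with its 95% interval for the 26 members tested, grouped by role; filled points are the 3 members called. The ligands spread from -1.06 to 5.33, while 8 of the 9 Frizzleds lie between -0.63 and 0.23.

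Among the ligands, 8 of 19 were tested, 3 were called higher and 6 were higher in every footpad tumor, where 2.89% and 17.5% of all genes were. Of those 8, Wnt2, Wnt2b and Wnt11 passed the filter only through the footpad tumors and had to be higher there, so these counts carry no weight beyond the single genes. Wnt9a, a ligand known from joint formation (chr11:59306849-59333552), was at 2.36, 2.60 and 2.84 CPM in footpad tumors 1, 2 and 3 and at 0.466, 0.513 and 0.176 CPM in flank skin tumors 1, 2 and 3. The footpad tumors lay close together, far above the flank. The means were 2.60 ± 0.240 and 0.385 ± 0.183 CPM (SD, n = 3 each), and the fitted log2 fold change was 2.75 (SE 0.46, edgeR adjusted p = 0.0253).

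Wnt2, a ligand known from lung development (chr6:17985474-18032772), was at 0.494, 0.335 and 0.796 CPM in footpad tumors 1, 2 and 3. In the flank it was at 0.0345, 0 and 0 CPM, which is at or under the 3 reads taken as the limit of detection. The footpad mean was 10.8-fold the mean CPM of that limit in the flank libraries. The fitted log2 fold change was 5.33 (95% interval 2.96 to 7.71, edgeR adjusted p = 0.0349), and its size is uncertain with so few flank reads. Its relative Wnt2b was at 0.786, 0.219 and 0.531 CPM in the footpad and at 0, 0.103 and 0.0320 CPM in the flank, in the order of the replicates. The sites did not overlap for Wnt2b, but footpad tumor 2 lay near flank tumor 2, and the difference did not pass the test (log2 fold change 3.44, SE 1.00, edgeR adjusted p = 0.0873). Both genes were low where they were found.

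Wnt11 and Wnt5a are ligands known for signaling outside the β-catenin branch. Wnt11 (chr7:98835084-98854747) was at 1.15, 0.875 and 1.33 CPM in footpad tumors 1, 2 and 3 and at 0.0690, 0.137 and 0 CPM in flank skin tumors 1, 2 and 3. Its log2 fold change was 3.99 (SE 0.88, edgeR adjusted p = 0.0483), and in the 6 fits without 1 tumor the log2 fold change stayed between 3.41 and 4.96 while the adjusted p, from 0.0505 to 0.148, missed the threshold each time. Wnt5a (chr14:28504543-28527448) was at 9.54, 1.33 and 6.08 CPM in the footpad and at 0.242, 0.975 and 0.863 CPM in the flank. Footpad tumors 1 and 3 stood far above the other 4, and footpad tumor 2 lay just above the flank. Wnt5a did not pass the test (log2 fold change 3.02, SE 0.79, edgeR adjusted p = 0.0686), and without footpad tumor 2 its adjusted p was 0.0274.

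Wnt10a, a ligand of teeth, sweat glands and thick skin, was at 1.26, 0.744 and 0.715 CPM in footpad tumors 1, 2 and 3 and at 0.345, 0.359 and 0.144 CPM in the flank. The sites did not overlap, and the log2 fold change of 1.67 (SE 0.52) missed the threshold (edgeR adjusted p = 0.102). Wnt6, which begins the same gene pair on chromosome 1 with 6.70 kb between the genes, leaned the other way, from 0.247 to 0.531 CPM in the footpad and from 0.447 to 1.38 CPM in the flank (log2 fold change -1.06, SE 0.57, edgeR adjusted p = 0.281). The difference between these neighbors was not tested. Wnt5b ran from 1.51 to 1.93 CPM in the footpad and from 1.03 to 1.89 CPM in the flank (log2 fold change 0.32, 95% interval -0.53 to 1.18).

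**Figure D2:**
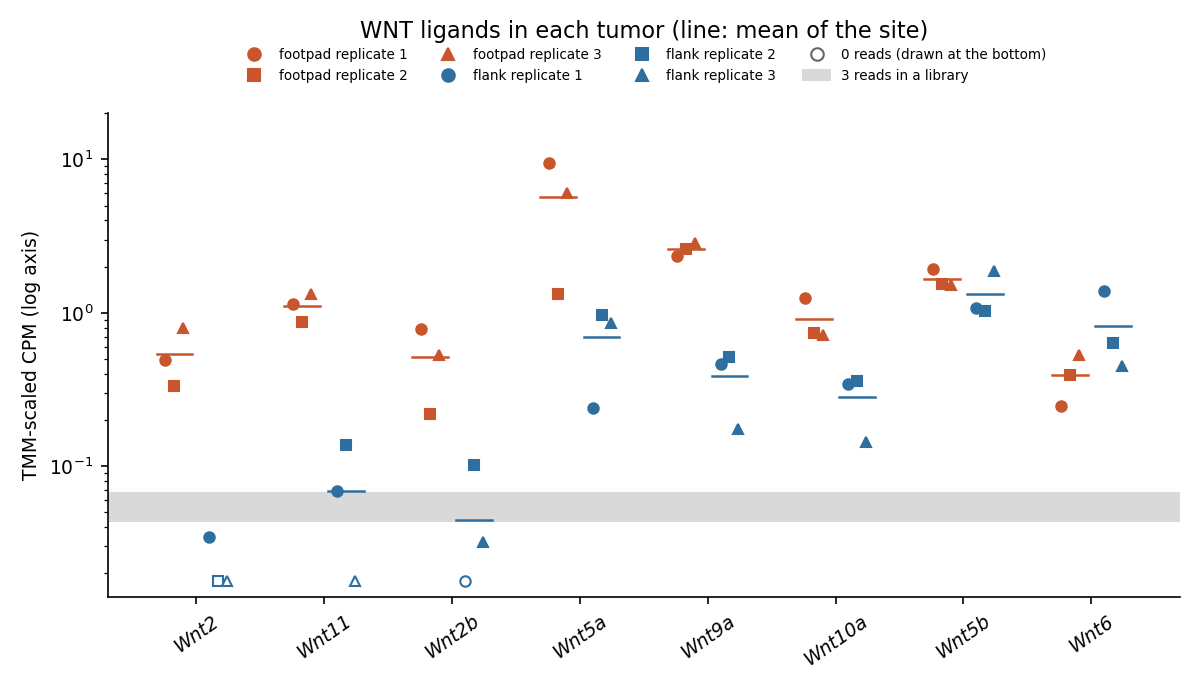
TMM-scaled CPM on a log axis of the 8 ligands tested, with 1 point per tumor, a line at the mean of each site, open points at 0 reads and a gray band at 3 reads. The footpad points of Wnt2, Wnt11, Wnt2b, Wnt5a, Wnt9a and Wnt10a lie above all flank points of the same gene, and those of Wnt5b and Wnt6 overlap them.

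To compare ligands with each other, the deposited FPKM, which is scaled for transcript length, was summed over the 19 ligand genes. The sum was 3.91, 3.08 and 3.61 FPKM in footpad tumors 1, 2 and 3 and 1.25, 1.25 and 1.13 FPKM in flank skin tumors 1, 2 and 3, without overlap. The gene that led differed too. Wnt5a led in footpad tumors 1 (37.2% of the sum) and 3 (25.8%) and Wnt9a in footpad tumor 2 (23.6%), while Wnt6 led in flank tumor 1 (41.0%) and Wnt5b in flank tumors 2 (33.7%) and 3 (62.0%). The share of Wnt9a was 14.7%, 23.6% and 20.9% in the footpad and 8.81%, 11.8% and 3.85% in the flank. By number, 8, 12 and 11 ligands exceeded 3 reads in the footpad tumors and 8, 8 and 5 in the flank. These numbers were not adjusted for depth, and footpad tumor 2 had the most reads, 66364366. Of all genes listed, 21845, 22409 and 22426 had a read in the footpad tumors and 22607, 21902 and 21060 in the flank. The share of all genes over 3 reads is not given here.

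**Figure D3:**
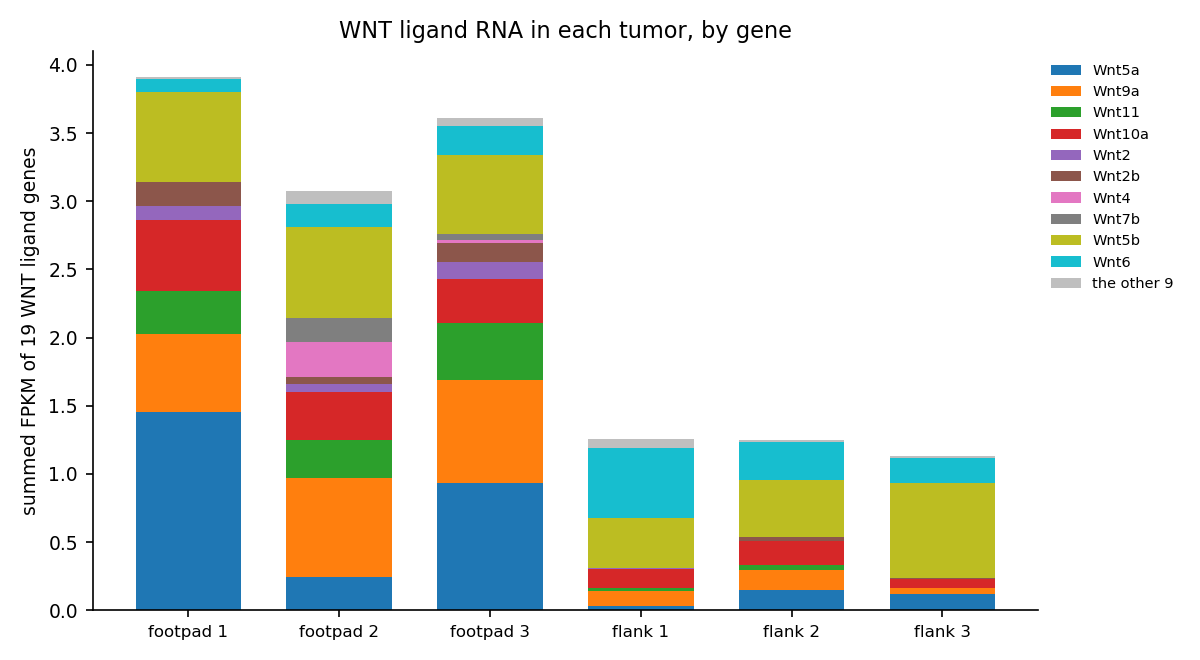
Deposited FPKM of the 19 WNT ligand genes stacked by gene for each of the 6 tumors, with the other 9 genes drawn together in gray. The footpad bars reach 3.08 to 3.91 FPKM and the flank bars 1.13 to 1.25 FPKM, and Wnt4 and Wnt7b appear mainly in footpad tumor 2.

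Of the 11 ligands not tested, 5 did not exceed 3 reads in any tumor (Wnt1, Wnt3 and Wnt16, and Wnt8a and Wnt8b, which had no read). Wnt4 had 0, 72 and 5 reads in footpad tumors 1, 2 and 3 and Wnt7b had 0, 45 and 10, and neither had a read in the flank. These reads came mostly from 1 tumor. Footpad tumor 2 was also the highest tumor for 12 of 12 keratinocyte markers, which summed to 799 CPM there, with 24.0 to 71.0 CPM elsewhere, and for 11 of 11 skeletal muscle markers (646 CPM against 11.5 to 85.2 CPM). The part of these cells in the Wnt4 and Wnt7b reads was not tested. Wnt10b reached 15 reads, and Wnt3a, Wnt7a and Wnt9b reached 4 each.

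Frizzled genes, which encode the WNT receptors, were tested in 9 of 10 cases and gave 0 calls in either direction by edgeR, beside 2.89% higher and 0.872% lower of all genes. Fzd8 alone (11.1%) was higher at an unadjusted edgeR p under 0.05 and by DESeq2, beside 14.8% and 6.71% of all genes. Their median log2 fold change was 0.08. Fzd7 was at 59.9, 60.7 and 65.8 CPM in footpad tumors 1, 2 and 3 and at 63.2, 68.9 and 91.3 CPM in the flank (log2 fold change -0.26, 95% interval -0.64 to 0.12). Fzd6 was at 43.7, 55.5 and 42.8 CPM in the footpad and at 29.7, 46.3 and 56.2 CPM in the flank (log2 fold change 0.10, interval -0.45 to 0.66). In FPKM these 2 genes made up between 64.4% and 72.4% of the Frizzled total in every tumor, the total being 26.1 to 40.7 FPKM.

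Fzd1 was at 17.5, 14.5 and 17.9 CPM in footpad tumors 1, 2 and 3 and at 18.7, 17.5 and 15.6 CPM in the flank, with an interval of the log2 fold change from -0.43 to 0.32. Fzd3 was at 20.2, 21.4 and 19.5 CPM in the footpad and at 12.6, 21.7 and 23.7 CPM in the flank, with an interval from -0.48 to 0.63. Fzd4 was at 8.35, 9.28 and 7.96 CPM in the footpad and at 5.38, 8.14 and 8.52 CPM in the flank, with an interval from -0.34 to 0.77. For these receptors the sites overlapped and the intervals included 0. Fzd2 ran from 4.83 to 5.59 CPM in the footpad and from 4.35 to 5.46 CPM in the flank, with an interval from -0.51 to 0.54.

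Fzd5 was higher in every footpad tumor by a small amount, at 10.2, 12.3 and 10.5 CPM against 9.56, 9.25 and 9.35 CPM (log2 fold change 0.23, SE 0.17, edgeR adjusted p = 0.442). Fzd9 was lower in every footpad tumor, at 1.15, 4.13 and 3.08 CPM against 4.23, 4.41 and 4.36 CPM, and footpad tumor 1 stood apart from the rest (log2 fold change -0.63, SE 0.44, edgeR adjusted p = 0.407). Neither passed the test. Fzd8, a low member of the family, was at 0.696, 0.598 and 0.653 CPM in footpad tumors 1, 2 and 3 and at 0.104, 0.222 and 0.0320 CPM in the flank. Its footpad values lay close together and clear of the flank (log2 fold change 2.43, SE 0.68), with an adjusted p of 0.0783 by edgeR and 0.0362 by DESeq2. Fzd10 was not tested: it had 20 reads in footpad tumor 2 and 0 in the other 5.

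Secreted inhibitors gave 0 calls by edgeR among the 4 of 9 tested and 1 by DESeq2, Dkk2, which was also the 1 with an unadjusted edgeR p under 0.05. Of all genes 2.89% were called higher by edgeR and 6.71% by DESeq2, and 14.8% were higher at an unadjusted edgeR p under 0.05. Dkk3, a divergent Dickkopf, had the highest FPKM of all members (mean 20.3 over the 6 tumors) and made up 83.4% to 93.4% of the summed FPKM of the inhibitors in the footpad and 95.4% to 99.9% in the flank. It was at 46.9, 74.2 and 59.6 CPM in footpad tumors 1, 2 and 3 and at 143.6, 65.2 and 80.7 CPM in the flank. Flank tumor 1 was the highest and the sites overlapped (log2 fold change -0.68, 95% interval -1.40 to 0.04). Dkk2, which acts on Lrp5 and Lrp6, was at 0.674, 1.43 and 0.919 CPM in the footpad and at 0, 0.154 and 0.0639 CPM in the flank. The sites did not overlap, and the log2 fold change was 3.76 (SE 0.92), with an adjusted p of 0.0596 by edgeR and 0.00177 by DESeq2.

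Sfrp2, which binds WNT ligands, ran from 1.40 to 5.47 CPM in the footpad. In the flank it was at 1.40 CPM in tumor 2 and at 0 in tumors 1 and 3. The sites overlapped (log2 fold change 2.67, SE 1.57, edgeR adjusted p = 0.331), and without flank tumor 2 the adjusted p was 0.0272. Sfrp1 ran from 0.225 to 0.715 CPM in the footpad and from 0 to 0.445 CPM in the flank (edgeR adjusted p = 0.498). Among inhibitors not tested, Sfrp4 reached 32 reads, Wif1 reached 26, Sfrp5 reached 6, Dkk1 reached 3, and Dkk4 had none.

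Of Lgr4, Lgr5 and Lgr6, the receptors of R-spondins, 0 were called by edgeR and 1, Lgr6, was called higher by DESeq2, beside 2.89% and 6.71% of all genes called higher. Lgr4 was the most abundant, with 87.5% to 95.3% of the summed FPKM of its group in footpad tumors and 93.3% to 97.9% in the flank. It was at 33.5, 44.0 and 41.0 CPM in footpad tumors 1, 2 and 3 and at 35.4, 48.7 and 71.1 CPM in the flank (log2 fold change -0.39, 95% interval -0.98 to 0.20). Lgr6, known from skin stem cells, was at 5.57, 1.44 and 3.27 CPM in the footpad and at 0.190, 0.924 and 0.384 CPM in the flank. As for Wnt5a, footpad tumor 2 was the lowest of its site and lay next to flank tumor 2. Lgr6 had a log2 fold change of 2.77 (SE 0.71), with an adjusted p of 0.0649 by edgeR and 0.000969 by DESeq2. In the 6 edgeR fits without 1 tumor the adjusted p ran from 0.0439, without footpad tumor 2, to 0.191, and Lgr6 passed in 1 of them.

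Lgr5, known from hair follicle stem cells, was at 0.314, 0.773 and 0.613 CPM in footpad tumors 1, 2 and 3 and at 2.12, 0.890 and 1.04 CPM in the flank. Every footpad tumor was lower, but the difference did not pass (log2 fold change -1.24, 95% interval -2.44 to -0.04, edgeR adjusted p = 0.187). The R-spondins themselves were not tested. Rspo3 reached 26 reads, Rspo2 reached 11, Rspo1 reached 8, and Rspo4 had none.

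Axin2, a feedback inhibitor that is widely used as a readout of β-catenin signaling, overlapped between the sites. It was at 5.88, 6.83 and 6.92 CPM in footpad tumors 1, 2 and 3 and at 8.45, 4.58 and 4.20 CPM in the flank, where flank tumor 1 was the highest of all. The log2 fold change was 0.19 with a 95% interval from -0.54 to 0.91 (edgeR adjusted p = 0.742). Lef1, a nuclear partner of β-catenin, had 7 reads in footpad tumor 2, 4 in flank tumor 2 and 0 in the other 4.

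Tcf7, also a nuclear partner of β-catenin, differed between its counts and its FPKM. By counts it was at 6.65, 6.49 and 4.88 CPM in footpad tumors 1, 2 and 3 and at 5.64, 7.44 and 7.85 CPM in the flank (log2 fold change -0.22, 95% interval -0.78 to 0.35, edgeR adjusted p = 0.612). By deposited FPKM it was at 0.573, 0.693 and 0.490 in the footpad and at 1.47 to 2.16 in the flank, and limma on log2(FPKM + 1) gave an adjusted p of 0.0190. The sites thus overlapped by counts and stood apart by FPKM.

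The FPKM given per CPM was 0.0900, 0.103 and 0.0983 for Tcf7 in the footpad tumors and 0.280, 0.263 and 0.278 in the flank, a 2.82-fold difference. Among 11374 genes with over 100 reads in every tumor, Tcf7 itself was the 1 gene whose ratio was as far apart, and the median absolute log2 difference was 0.015. Scaled to Fzd1, a gene of 4378 bases whose ratio was alike at both sites, the length implied for Tcf7 was 9.50, 8.79 and 9.06 kb in the footpad tumors and 3.15, 3.43 and 3.22 kb in the flank. Its transcripts in the GENCODE annotation are 1742 and 2471 bases long. The length the authors used for each tumor, and the transcripts behind the reads, were not analysed here.

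**Figure D4:**
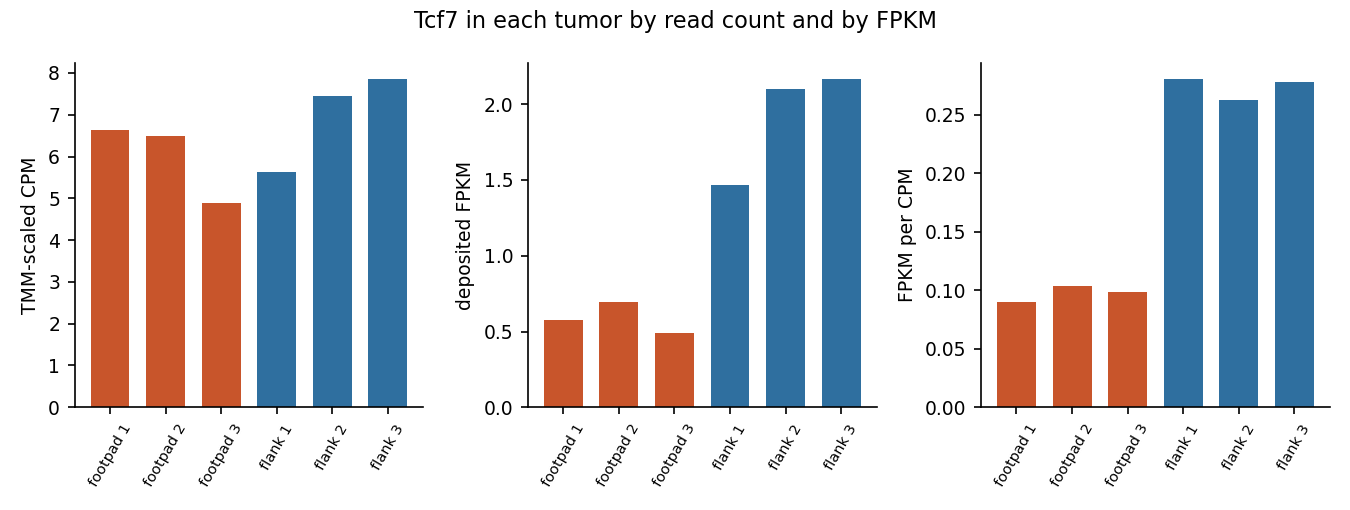
Tcf7 in each of the 6 tumors as TMM-scaled CPM, as deposited FPKM and as FPKM per CPM, with bars starting at 0 (orange, footpad; blue, flank skin). The sites overlap in CPM, from 4.88 to 7.85, and are apart in FPKM, 0.490 to 0.693 against 1.47 to 2.16.

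Ordered by mean FPKM over the 6 tumors, Dkk3 (20.3), Fzd7 (12.7), Fzd6 (10.2), Lgr4 (8.08) and Fzd1 (3.44) led, followed by Fzd4 (1.93), Fzd9 (1.52), Fzd3 (1.40), Fzd5 (1.32), Axin2 (1.27), Fzd2 (1.25) and Tcf7 (1.25). The first ligands in this order were Wnt5b (0.565), Wnt5a (0.488) and Wnt9a (0.392). The 12 leading members held no ligand.

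Other genes of the pathway were taken from a list of 77, of which 67 were tested. Of these 6 (8.96%) were called higher in footpad tumors by edgeR and 0 lower, against 2.89% and 0.872% of all genes, and DESeq2 called 9 (13.4%) and 0, against 6.71% and 2.05%. Without footpad tumor 1, footpad tumor 3 or flank skin tumor 3 edgeR called 0 of them, and without flank skin tumor 1 it called 3. The share of all genes called in these fits is not given here. By edgeR 17 (25.4%) were higher and 2 lower at an unadjusted p under 0.05, beside 14.8% and 10.5% of all genes. The 2 lower genes were Celsr2 and Gpc6, with log2 fold changes of -0.60 and -0.61, relatives of Celsr1 and Gpc4 described below. Both were lower in every footpad tumor and neither was called. The median log2 fold change of the 67 genes was 0.15. Every footpad tumor was above the flank in 19 (28.4%) and below it in 5 (7.46%), beside 17.5% and 14.9% of all genes.

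Of the 6 called genes, Ptk7 and Celsr1 belong to planar cell polarity signaling. Ptk7, a WNT coreceptor, was at 14.3, 15.5 and 15.9 CPM in footpad tumors 1, 2 and 3 and at 1.69, 4.12 and 2.64 CPM in the flank (log2 fold change 2.43, SE 0.33, edgeR adjusted p = 0.0158). Celsr1, a polarity cadherin, was at 2.60, 4.11 and 2.65 CPM in the footpad and at 0.621, 0.719 and 0.336 CPM in the flank (log2 fold change 2.48, SE 0.41, edgeR adjusted p = 0.0253). For both the footpad tumors lay well clear of the flank. Cthrc1, a secreted protein that binds WNT and Frizzled, was at 5.34, 8.02 and 7.17 CPM in the footpad and at 0, 0.496 and 0.128 CPM in the flank (log2 fold change 5.03, SE 1.01, edgeR adjusted p = 0.0384). Gpc4, a cell surface proteoglycan, was at 2.96, 3.37 and 2.57 CPM in the footpad and at 0.673, 1.23 and 0.991 CPM in the flank (log2 fold change 1.62, SE 0.34, edgeR adjusted p = 0.0425).

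Tnfrsf19, a receptor known as a target of β-catenin, was at 48.2, 80.4 and 46.2 CPM in footpad tumors 1, 2 and 3 and at 10.04, 18.97 and 19.16 CPM in the flank (log2 fold change 1.86, SE 0.32, edgeR adjusted p = 0.0269). Nkd2, an inhibitor of Dishevelled, was at 1.48, 0.569 and 1.23 CPM in the footpad and at 0.0690, 0.205 and 0.176 CPM in the flank (log2 fold change 2.84, SE 0.60, edgeR adjusted p = 0.0430). Both stood apart between the sites. Ror2, the coreceptor of Wnt5a, was at 1.08, 1.34 and 2.43 CPM in the footpad and at 0.0345, 0.342 and 0.0320 CPM in the flank, and did not pass (log2 fold change 3.55, SE 0.91, edgeR adjusted p = 0.0661). Trabd2b, a protease that cleaves WNT ligands, had a log2 fold change of 3.75 (SE 0.94, edgeR adjusted p = 0.0628), from 1.68 to 2.31 CPM in the footpad and from 0 to 0.291 CPM in the flank. Twist1, a transcription factor that is also a mesenchymal gene, had a log2 fold change of 2.22 (SE 0.57, edgeR adjusted p = 0.0650), from 1.01 to 1.57 CPM in the footpad and from 0.0959 to 0.397 CPM in the flank.

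Among cytoplasmic transducers and the destruction complex, 19 of 20 genes were tested and 1 (5.26%), Nkd2, was called higher, beside 2.89% of all genes. At an unadjusted p under 0.05 by edgeR 5 (26.3%) were higher and 0 lower, beside 14.8% and 10.5% of all genes. The other 4 of these 5 were Dvl3 (log2 fold change 0.86), a Dishevelled that relays the signal of Frizzleds, Dact1 (0.93), the kinase Csnk1e (0.50) and the tankyrase Tnks (0.45). β-Catenin (Ctnnb1) had a log2 fold change of -0.34 with a 95% interval from -0.86 to 0.18, the coreceptors Lrp5 and Lrp6 had -0.25 (-0.62 to 0.13) and 0.00 (-0.47 to 0.46), and Wls, which carries WNT ligands to the cell surface, had -0.48 (-1.04 to 0.07). Genes often used as targets, Ccnd1 and Myc, had -0.12 (-0.52 to 0.28) and 0.15 (-0.35 to 0.65). None of these last 6 genes passed the test by edgeR. The list held 8 target genes, of which 5 were tested. Besides Ccnd1 and Myc these were Tnfrsf19, Twist1 and Cd44, with log2 fold changes of 1.86, 2.22 and 0.37. These 3 were higher in every footpad tumor, as were 17.5% of all genes, and edgeR called Tnfrsf19 only. Frzb, the soluble Frizzled that carries the name Sfrp3, was at 7.50 to 10.6 CPM in the footpad and 5.42 to 10.5 CPM in the flank. The genes of this paragraph were picked after their values were seen.

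**Figure D5:**
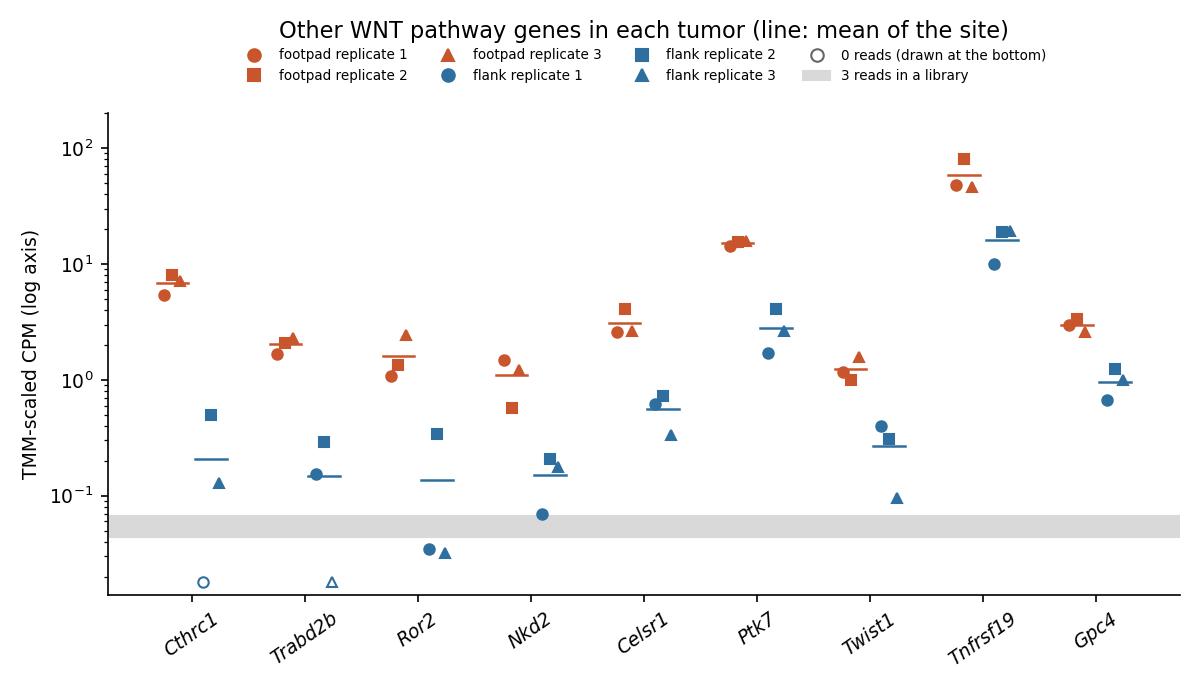
TMM-scaled CPM on a log axis of 9 other WNT pathway genes, with 1 point per tumor, a line at the mean of each site, open points at 0 reads and a gray band at 3 reads. Every footpad point lies above all flank points of the same gene, and Ptk7, at 14.3 to 15.9 against 1.69 to 4.12 CPM, passed the test with the lowest adjusted p.

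The summed markers of fibroblasts, endothelial cells, macrophages, pericytes, keratinocytes and T cells were higher in every footpad tumor. Those of the other cell types given here overlapped between the sites. Keratinocyte markers summed to 71.0, 799 and 48.4 CPM in footpad tumors 1, 2 and 3 and to 24.0, 37.6 and 37.4 CPM in the flank. The low T cell sums were 4.13, 1.37 and 4.08 CPM in the footpad and 1.17, 1.23 and 0.799 CPM in the flank. All 12 of 12 fibroblast markers were higher in every footpad tumor and 9 were called higher, beside 17.5% and 2.89% of all genes. The list summed to 2743, 2774 and 3762 CPM in footpad tumors 1, 2 and 3 and to 81.1, 415 and 108 CPM in the flank. Within the footpad 9 of the 12 were highest in tumor 3, as were Wnt9a, Wnt2, Wnt11 and Sfrp2, whereas Wnt5a, Wnt2b, Wnt10a, Lgr6 and Fzd8 were highest in tumor 1 and Dkk2, Sfrp1 and Fzd5 in tumor 2. Endothelial markers summed to 384 to 459 CPM in the footpad and 223 to 269 CPM in the flank, macrophage markers to 239 to 270 and 34.5 to 183 CPM, and pericyte markers to 185 to 279 and 88.5 to 148 CPM. Melanocyte markers summed to 10221 to 18923 CPM in the footpad and 15024 to 25767 CPM in the flank, with 0 called. Schwann cell markers summed to 492 to 546 CPM in the footpad and 535 to 689 CPM in the flank, neutrophil markers to 7.19 to 375 and 4.76 to 31.0 CPM, tendon and cartilage markers to 52.4 to 209 and 42.5 to 62.6 CPM, and hair follicle and sweat gland markers to 0 to 6.10 and 0 to 14.9 CPM. The part of these cells in the values of the WNT members was not tested. In such bulk samples, fewer cells of a type and less RNA per cell cannot be told apart.

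The counting program and its use of strand are not given in the sources used here, and some members share exon sequence with a gene on the opposite strand. Wnt11 shares 364 bases with Gm8398, Wnt5a shares 358 with Gm2670, Sfrp2 shares 347 with Gm26771, Axin2 shares 209 with Gm11670 and Fzd5 shares 1233 with Gm38058 in the GENCODE annotation. For these members, reads of the partner could not be told apart from their own if strand was not used.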

How the data were processed

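Total RNA of 3 footpad and 3 flank skin B16F10 tumors was analysed. The authors prepared stranded libraries, checked reads with FastQC 0.11.7, trimmed them with Trimmomatic, aligned them to mm10 with HISAT2 2.1.0, and deposited whole read counts per gene, unnormalized, and FPKM values scaled for length and depth. The counting program and strand setting are not given in the sources used here. Footpad and flank counts were compared by edgeR 4.0.16 under R 4.3.3 (TMM, filterByExpr, glmQLFit, glmQLFTest, Benjamini-Hochberg over 17210 genes). The SE is the log2 fold change over the root of F. Alternatives used DESeq2 1.42.0, limma 3.58.1 on log2(FPKM + 1) or + 0.1, other scalings, filters and thresholds, a replicate block, and leaving out each tumor. The fit was tested on simulated data. The limit of detection of 3 reads was 0.0438 to 0.0674 CPM and covers counting error only. Tumors of a site differed by more than sampling noise (chi-square 62.3 to 578 per gene). Coordinates and promoters are RefSeq GRCm38.p6, the assembly of mm10. The members and gene lists were chosen with earlier results of these data known. All tested members are named. Per-tumor values are given at an adjusted p under 0.10, without overlap, or among the 10 highest FPKM. Pathway genes are named at an adjusted p under 0.05, with the 3 largest further changes without overlap. β-Catenin, its coreceptors and the other genes beside them, and Celsr2 and Gpc6, were added after their values were seen. Figures used matplotlib 3.10.9.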

Additional observations from a re-analysis of the deposited data

How the results depend on the processing

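The number of members called higher, 3 by edgeR, was 8 with DESeq2 or at an adjusted p under 0.10, 5 with limma on log2(FPKM + 0.1), and 0 with limma on log2(FPKM + 1), where the FPKM of Wnt9a, Wnt11 and Wnt2 is too low for a difference of the size required, although the adjusted p was 0.00988 for Wnt9a and 0.0168 for Wnt11. Without 1 tumor it ranged from 0 to 4: it was 0 without footpad tumor 1, footpad tumor 3 or flank tumor 3, 2 without flank tumor 1 (Wnt2 and Wnt9a) or flank tumor 2 (Wnt9a and Sfrp2), and 4 without footpad tumor 2 (Wnt2, Wnt9a, Wnt5a and Lgr6). Members called lower went from 0 to 1, Tcf7, with limma on log2(FPKM + 0.1). Pathway genes called higher, 6 by edgeR, were 3 with limma on log2(FPKM + 1), and 0 to 6 without 1 tumor: 0 without footpad tumor 1, footpad tumor 3 or flank tumor 3, and 3 without flank tumor 1. Requiring 10 counts in every tumor left 4 members higher in every footpad tumor, since Wnt2, Wnt2b, Wnt10a, Wnt11, Fzd8 and Dkk2 were no longer tested. The median log2 fold change of the members, 0.22, was 1.28 without a filter, 0.07 with 10 counts in every tumor, 0.13 with limma on log2(FPKM + 1), and 0.15 to 0.33 without 1 tumor. The deviations of same-numbered tumors from their site means correlated at r of 0.0544, -0.0965 and -0.115. Pairs with unlike numbers ran from -0.199 to 0.264. With 3 tumors per site these values cannot show whether the numbers pair tumors of the same mouse. With the replicate block 0 members and 0 pathway genes were called, as were 0 of all genes by edgeR (9 members and 20.6% of all genes at an unadjusted p under 0.05). Of 26 single members, 12 kept direction and side of the threshold under every alternative run. Those that turned direction did so without 1 tumor, namely Fzd1 (-0.12 to 0.04), Fzd2 (-0.08 to 0.08), Fzd3 (-0.16 to 0.25) and Fzd6 (-0.11 to 0.32). The cause of the other changes was not tested. The 22 members not tested were under the filter on low counts, and without that filter 2 members, Wnt2 and Wnt9a, were called higher.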
